A study of Mus musculus with 7 samples.

Results

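The alcohol dehydrogenases (Adh), retinol dehydrogenases (Rdh), aldehyde dehydrogenases (Aldh), aldo-keto reductases (Akr) and hydroxysteroid dehydrogenases (Hsd) were followed in glomeruli, the filtering units of the kidney. Members were all gene symbols that begin with one of these names followed by a digit, apart from 2 symbols that were left out, which gave 47 genes of the 12958 measured. They comprised 2 Adh, 10 Rdh, 15 Aldh and 12 Akr genes, and 8 Hsd genes (1 Hsd11b, 4 Hsd17b and 3 Hsd3b). RNA sequencing had been done on isolated glomeruli of 7 male BALB-C mice aged 14 weeks, 1 library per mouse. Doxycycline was given to all 7, by way of both diet and drinking water, over 6 weeks that began at 8 weeks of age. The 3 knockdown mice carried an siRNA transgene against Shroom3, an actin-binding junction protein, and the 4 controls were littermates without it. The promoter and cell type that drive the transgene are not given in the labels, and values are log2 expression, whose depth and counting error are unknown.

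These enzymes move hydride between NAD(P) cofactors and alcohols, aldehydes or ketones. Adh and Rdh enzymes oxidise alcohols such as ethanol and retinol to aldehydes, Aldh enzymes oxidise aldehydes to acids, among them retinal to retinoic acid, and Akr and Hsd enzymes mostly act on sugar, lipid and steroid carbonyls. In the kidney many of them are known from the proximal tubule, where they serve amino acid breakdown and clearance of reactive aldehydes, and Hsd11b2 guards the distal nephron against glucocorticoids.

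Shroom3 itself was at 10.80, 10.91 and 10.89 in the knockdown libraries and at 10.94, 10.85, 11.36 and 11.06 in the controls, a log2 fold change of -0.19 that did not pass (adjusted p = 0.417 by limma with Benjamini-Hochberg adjustment). Control replicate 2 lay within the knockdown values, so the lower level that the label implies was not seen beyond the spread, and groups are named as labelled throughout. The 15 podocyte markers listed were all measured, and 4 of them fell at an adjusted p of 0.05 by limma with Benjamini-Hochberg adjustment, where 2.02% of all genes did. Of the 15, 13 were negative and 7 had an unadjusted p under 0.05, where 18.4% of all genes did. The list median was -0.30. Of 27 proximal tubule markers, all measured, 12 fell and 1 rose, among them Cyp2e1 (-3.26), Slc22a12 (-2.26), Cyp4b1 (-1.06) and Pck1 (1.49), and the median log2 fold change of the list was -0.44 against 0.02 over all genes. None of these markers lay near the bottom of the tables: the lowest of the 27 means was 9.18, where the lowest value of any gene was 2.32. Their summed antilogarithm was 380139 to 497600 in control and 303177 to 387456 in knockdown libraries. The part of tubule RNA in the results that follow was not tested, and in such bulk samples fewer cells of a type and less RNA per cell cannot be told apart. Sample titles came in 2 styles, G (2 knockdown, 3 control) and CB6 (knockdown replicate 3 and control replicate 4). The 4 podocyte markers that fell were Magi2, Thsd7a, Clic3 and Col4a3. With title style as a covariate Col4a3 lost its call (adjusted p = 0.0787 by limma with Benjamini-Hochberg adjustment). In the libraries titled G alone all 4 lost theirs (adjusted p from 0.0820 to 0.330). Among the proximal tubule markers named, Cyp4b1 also lost its call there (adjusted p = 0.0737).

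Of the 47 members, 4 fell and 0 rose at an adjusted p of 0.05 (limma, Benjamini-Hochberg over all genes). The genes that fell were Adh1, Rdh10, Akr1c21 and Hsd17b11, 1 from each of the alcohol, retinol, aldo-keto and hydroxysteroid branches. Over all genes 3.02% were called, 2.02% lower and 0.996% higher, and among members the share was 8.51%. With title style as a covariate 3 members fell, all of these but Rdh10, where 1.47% of all genes were called and 1.13% were lower. At an unadjusted p of 0.05, 9 members were lower and 5 higher, 29.8% of the members against 18.4% of all genes. Groups did not overlap for 9 of 47 members (19.1%), close to the 18.4% of all genes, but 8 of these were lower in knockdown, where 7.55% of all genes were. The median log2 fold change over the 47 was -0.05 against 0.02 over all genes, and 26 members were negative and 21 positive. In the 5 libraries titled G alone, 0 members passed the same test, with 8 at an unadjusted p of 0.05, where 0.309% (0.201% lower) and 10.7% of all genes were called.

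**Figure D1:**
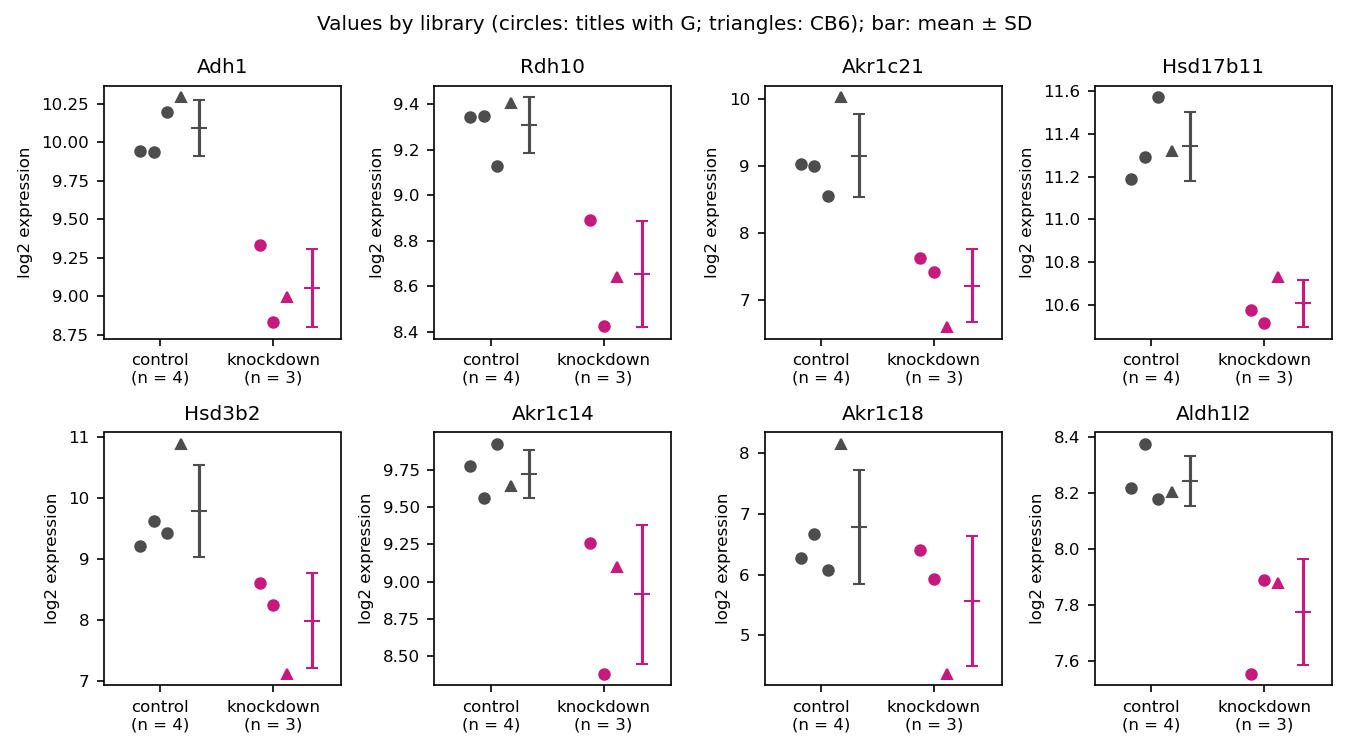
Log2 expression (y axis) of 8 members in each control (n = 4) and knockdown (n = 3) library, with circles for titles with G, triangles for CB6 and bars for the mean ± SD. For Adh1, Rdh10, Akr1c21 and Hsd17b11 all knockdown points lie below all control points, and for Akr1c18 the triangles alone lie far apart.

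Adh1, the class I alcohol dehydrogenase that oxidises ethanol and retinol, was lower in every knockdown library. It was at 9.33, 8.83 and 8.99 in knockdown and at 9.94, 9.94, 10.20 and 10.29 in control libraries. The groups lay apart by more than the spread within either. Knockdown averaged 9.05 ± 0.25 (SD, n = 3) and control 10.09 ± 0.18 (SD, n = 4). The difference on the log2 scale was -1.04 (SE 0.14, 95% CI -1.35 to -0.73), or 2.06-fold lower (adjusted p = 0.00603 by limma with Benjamini-Hochberg adjustment). The difference was -0.95 within the libraries titled G and -1.30 in the CB6 pair. Adh1 (ENSMUSG00000074207.10) is annotated on GRCm38 chromosome 3 from 138260991 to 138290698, plus strand. It kept its call with any single library left out (adjusted p from 0.00693 to 0.0329) and with title style as a covariate (adjusted p = 0.0131). Adh5, which detoxifies formaldehyde with glutathione, lies 152.4 kb further along. It was at 10.485 to 10.54 in knockdown and 10.36 to 10.60 in control libraries (log2 fold change 0.08, 95% CI -0.08 to 0.23).

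Rdh10, which makes retinal from retinol for retinoic acid synthesis, fell as well. Its values were 8.89, 8.43 and 8.64 in knockdown and 9.34, 9.35, 9.13 and 9.41 in control libraries. The highest knockdown library stayed below the lowest control. Knockdown averaged 8.65 ± 0.23 (SD, n = 3) and control 9.31 ± 0.12 (SD, n = 4). The difference on the log2 scale was -0.65 (SE 0.12), or 1.57-fold lower (adjusted p = 0.0284 by limma with Benjamini-Hochberg adjustment). The adjusted p was the largest of the 4. The call was lost with title style as a covariate (log2 fold change -0.66, adjusted p = 0.0644). It was also lost without knockdown replicate 2 or 3 or control replicate 1 or 4, at log2 fold changes from -0.54 to -0.65. Rdh10 (ENSMUSG00000025921.7) lies on chromosome 1 from 16105774 to 16133734, plus strand.

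None of the other 9 Rdh genes passed, and most of their differences were positive. Rdh11, which reduces retinal, was at 8.83, 8.93 and 8.73 in knockdown and 8.53, 8.68, 8.55 and 8.68 in control libraries, without overlap (log2 fold change 0.21; adjusted p = 0.230 by limma with Benjamini-Hochberg adjustment). Over the 10 Rdh genes 8 were positive, with a median of 0.19, where 7276 of all 12958 genes were positive with a median of 0.02. Some of these Rdh genes share sequence, so their signs may not be separate observations. Among the 8 Rdh genes with an unadjusted p above 0.05 the log2 fold changes ran from -0.05 to 0.43. Rdh1 and Rdh9 differed by -0.05 and 0.0044, and the sign of both turned under other settings. Rdh16 differed by 0.16. How reads were shared among these copies is uncertain: of the words of 50 bases in the longest coding transcript of Rdh9, 92.3% also occur in transcripts of other genes, mostly Rdh16f1, and for Rdh18-ps, a pseudogene that overlaps Rdh16, the share was 66.9%.

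Aldehyde dehydrogenases, the next step of the pathway, held no member past the threshold (limma, Benjamini-Hochberg). At an unadjusted p of 0.05 there were 5 of 15 (33.3%), against 18.4% of all genes. Of these 5, Aldh1l2 and Aldh9a1 were lower and Aldh1a7, Aldh3b1 and Aldh1a2 higher in knockdown. Aldh1l2, the mitochondrial formyltetrahydrofolate dehydrogenase, was at 7.55, 7.89 and 7.88 in knockdown against 8.22, 8.37, 8.18 and 8.20 in control libraries. The groups did not overlap, and the log2 fold change of -0.47 (95% CI -0.73 to -0.21) missed the threshold (adjusted p = 0.0670 by limma with Benjamini-Hochberg adjustment). Its cytosolic counterpart Aldh1l1 differed by -0.05 (95% CI -0.28 to 0.19). Aldh9a1, of carnitine synthesis, was at 11.59, 11.21 and 11.38 against 11.70, 11.98, 11.59 and 11.83. The groups met without overlapping, at 11.585 and 11.5875, and its log2 fold change was -0.38 (adjusted p = 0.114 by limma with Benjamini-Hochberg adjustment).

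The retinal-oxidising Aldh1a2 was at 7.73, 7.97 and 7.82 in knockdown and 7.83, 7.32, 7.44 and 7.50 in control libraries. Control replicate 1 lay among the knockdown values, and the log2 fold change of 0.32 (95% CI 0.0012 to 0.63) did not pass (adjusted p = 0.269 by limma with Benjamini-Hochberg adjustment). Aldh1a7, a close relative of Aldh1a1, was at 7.46, 6.86 and 6.98 against 6.05, 6.94, 6.12 and 6.39. Control replicate 2 alone reached the knockdown range: with it the log2 fold change was 0.73 (adjusted p = 0.152), and without it 0.92 (adjusted p = 0.0427 by limma with Benjamini-Hochberg adjustment). Aldh3b1, of medium and long chain aldehydes, differed by 0.27 (adjusted p = 0.217). Among the mitochondrial enzymes of amino acid breakdown, Aldh6a1 (valine) differed by 0.09 and Aldh4a1 (proline) by -0.11. The acetaldehyde enzyme Aldh2 differed by 0.23. The 10 Aldh genes with an unadjusted p above 0.05 ran from -0.21 to 0.23. Aldh3a2, the fatty aldehyde dehydrogenase, carried no usable measurement: in the libraries titled G its values differed only by library offsets, a pattern found within 0.003 in 101 genes in all. It was kept in the counts of members, families and signs.

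**Figure D2:**
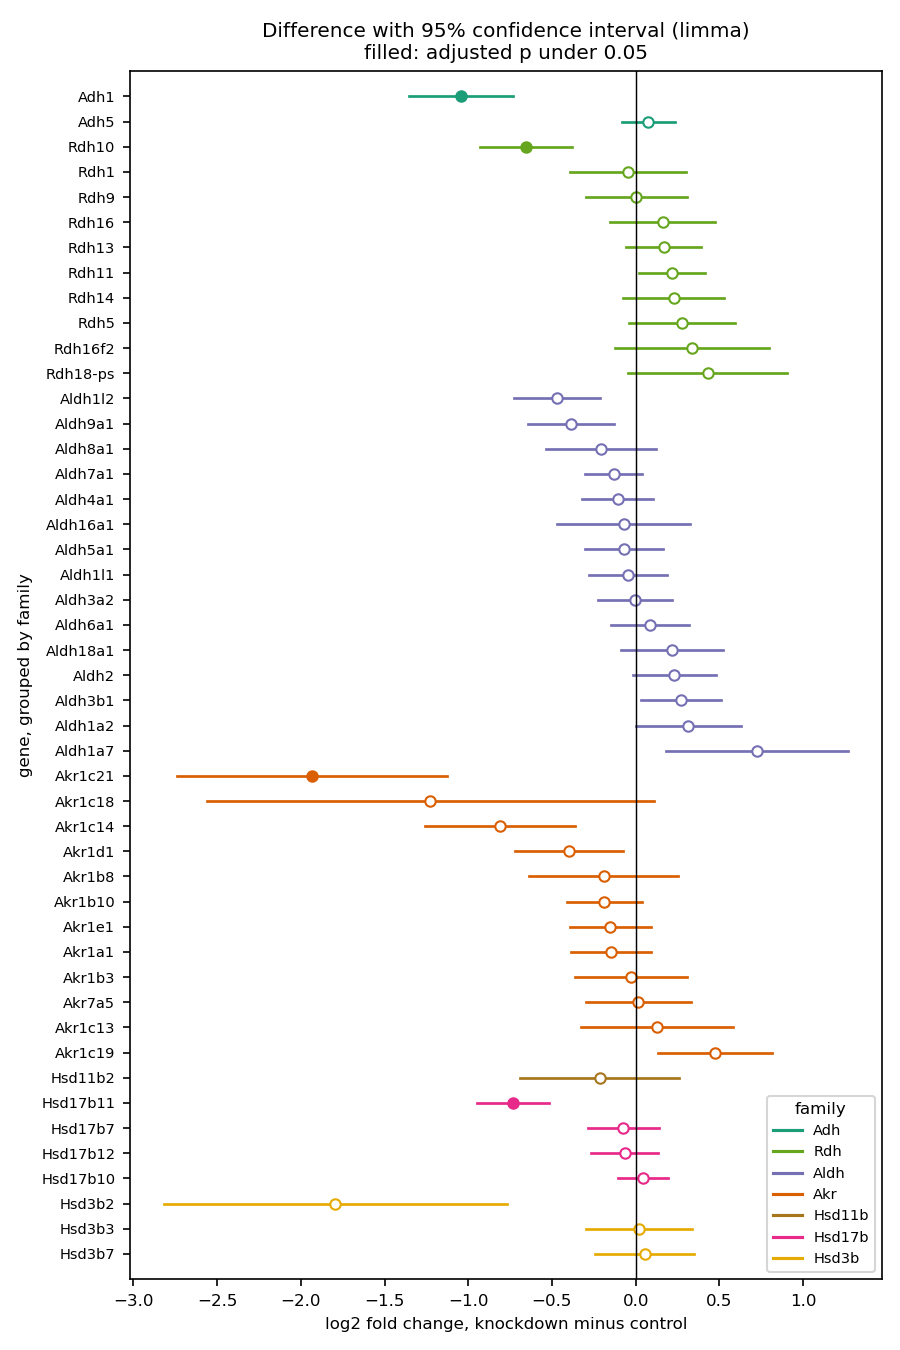
Log2 fold change, knockdown minus control (x axis), of all 47 members with the 95% confidence interval of limma, coloured by family; filled points have an adjusted p under 0.05. The 4 filled points, Adh1, Rdh10, Akr1c21 and Hsd17b11, are all left of 0. Among the Rdh intervals that of Rdh10 lies left of 0, that of Rdh11 lies right of it and the others cross it.

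Among the 12 aldo-keto reductases 1 passed the test. Akr1c21, which reduces ketosteroids, was at 7.63, 7.41 and 6.60 in knockdown and 9.02, 8.995, 8.56 and 10.02 in control libraries. Every knockdown library lay below the lowest control, and control replicate 4 stood above the other controls. Knockdown averaged 7.22 ± 0.55 (SD, n = 3) and control 9.15 ± 0.62 (SD, n = 4). The difference on the log2 scale was -1.93 (SE 0.35, 95% CI -2.74 to -1.13), or 3.82-fold lower (adjusted p = 0.0277 by limma with Benjamini-Hochberg adjustment). Akr1c21 (ENSMUSG00000021207.9; chromosome 13, 4574075 to 4586541, plus strand) also passed with title style as a covariate (adjusted p = 0.0495), but not without knockdown replicate 2 or 3 (log2 fold changes -2.03 and -1.62) or control replicate 1 (-1.97).

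Akr1c14, a hydroxysteroid-forming reductase of the same cluster, was at 9.26, 8.38 and 9.10 in knockdown and 9.77, 9.56, 9.92 and 9.64 in control libraries. It did not overlap and had a log2 fold change of -0.81 (adjusted p = 0.0680 by limma with Benjamini-Hochberg adjustment). Akr1c18, which inactivates progesterone, was at 6.41, 5.92 and 4.37 against 6.28, 6.67, 6.08 and 8.15, and the groups overlapped (log2 fold change -1.23, 95% CI -2.56 to 0.11). Akr1c19 was higher in knockdown, at 9.36, 9.43 and 9.60 against 8.77, 9.37, 9.04 and 8.78, with a log2 fold change of 0.47 (adjusted p = 0.137). Without control replicate 2, Akr1c19 passed (log2 fold change 0.60; adjusted p = 0.0259 by limma with Benjamini-Hochberg adjustment). Akr1d1, the steroid reductase of bile acid synthesis, differed by -0.40 (adjusted p = 0.180).

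None of the sugar and aldehyde reductases of the family passed the test. Akr1a1, the aldehyde reductase, was at 12.37 to 12.75 in knockdown and 12.55 to 12.78 in control libraries (log2 fold change -0.15, 95% CI -0.39 to 0.09). Akr1b3, the mouse aldose reductase that makes sorbitol from glucose, differed by -0.03 (95% CI -0.36 to 0.31) and changed sign without knockdown replicate 1 or control replicate 1 or 3. Of its words of 50 bases 59.9% also occur in other transcripts, mostly of Gm6644. Akr1e1 differed by -0.15.

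Among hydroxysteroid dehydrogenases Hsd17b11, a lipid droplet enzyme, fell. It was at 10.58, 10.52 and 10.73 in knockdown and 11.19, 11.29, 11.57 and 11.32 in control libraries. Within each group the values lay close together, and the gap between the groups was wider than either range. Knockdown averaged 10.61 ± 0.11 (SD, n = 3) and control 11.34 ± 0.16 (SD, n = 4). The difference on the log2 scale was -0.73 (SE 0.09, 95% CI -0.95 to -0.52), or 1.66-fold lower (adjusted p = 0.00587 by limma with Benjamini-Hochberg adjustment), the smallest adjusted p among members. Hsd17b11 (ENSMUSG00000029311.16; chromosome 5, 103989762 to 104021919, minus strand) kept its call with any single library left out (adjusted p from 0.00818 to 0.0363). The difference was -0.80 within the libraries titled G and -0.59 in the CB6 pair. The other Hsd17b members were close to 0: Hsd17b7 of cholesterol synthesis differed by -0.07, Hsd17b12 of fatty acid elongation by -0.07 and the mitochondrial Hsd17b10 by 0.04.

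Hsd3b2, of the enzymes that convert hydroxysteroids to ketosteroids, was at 8.60, 8.24 and 7.12 in knockdown and 9.21, 9.62, 9.42 and 10.88 in control libraries. The groups did not overlap, yet the spread within them was wide, at 7.99 ± 0.77 (SD, n = 3) and 9.78 ± 0.75 (SD, n = 4). Its log2 fold change of -1.79 (95% CI -2.82 to -0.77), the second largest in size among members after Akr1c21, did not pass (adjusted p = 0.0748 by limma with Benjamini-Hochberg adjustment). Hsd3b3 was at 8.83, 8.34 and 8.57 in knockdown and 8.47, 8.80, 8.42 and 8.56 in control libraries (log2 fold change 0.02, 95% CI -0.30 to 0.34). Hsd3b7, of bile acid synthesis, differed by 0.05, with 93.9% of its words of 50 bases also in transcripts of Gm49388. Of the words in the longest transcript of Hsd3b2 25.5% occur in other transcripts, as do 28.7% of those of Hsd3b3. Hsd11b2, which inactivates glucocorticoids, was at 9.74, 9.69 and 9.73 in knockdown and 9.35, 10.0005, 10.43 and 9.95 in control libraries. The controls spread on both sides of the knockdown values (log2 fold change -0.21, 95% CI -0.69 to 0.26; adjusted p = 0.638 by limma with Benjamini-Hochberg adjustment).

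**Figure D3:**
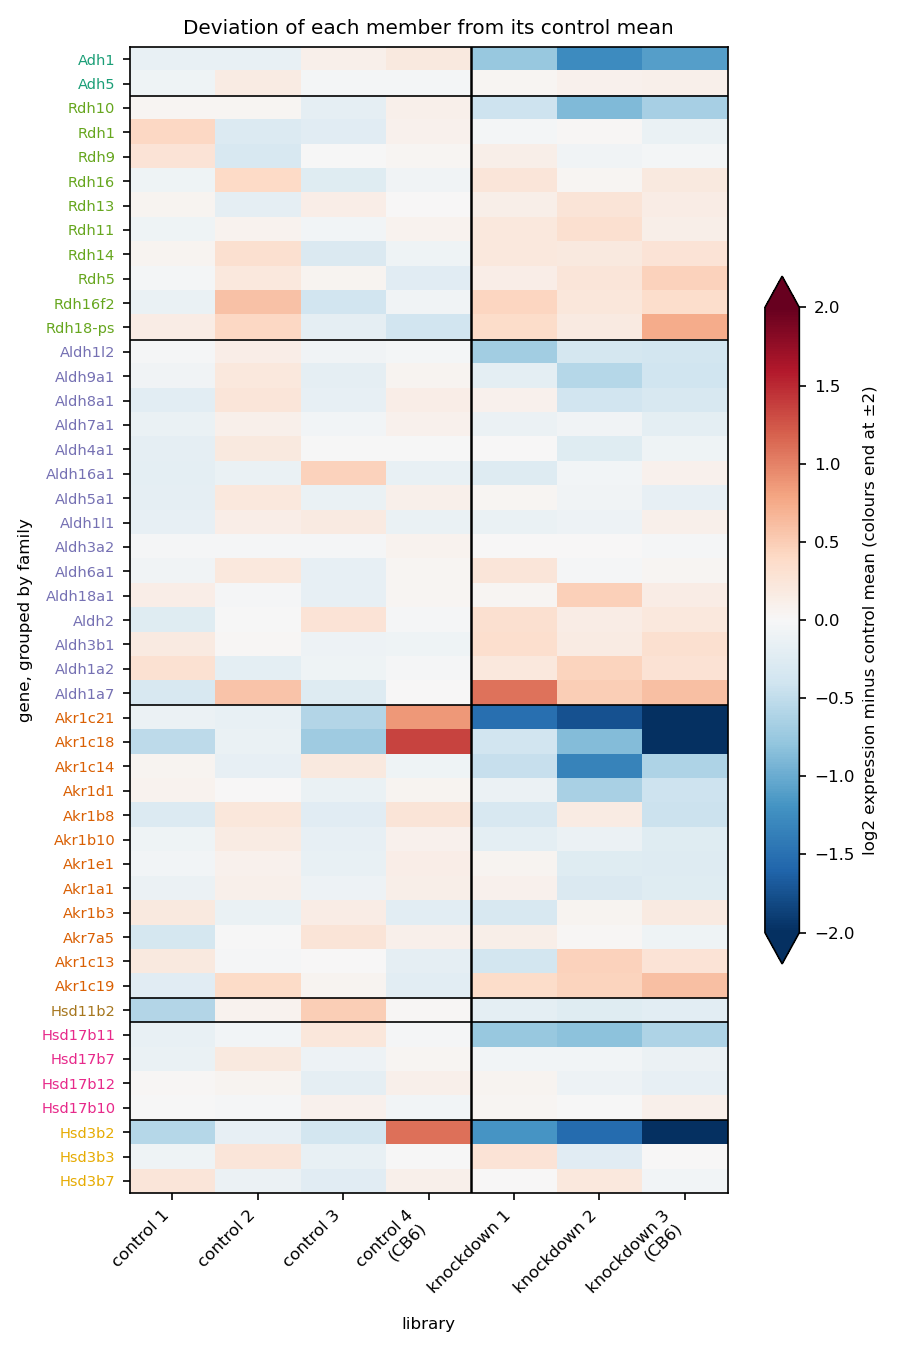
Log2 expression of each member (rows, grouped by family) in each library (columns) minus the mean of the 4 controls, blue for lower and red for higher, with colours ending at ±2. The rows of Adh1, Rdh10, Akr1c21, Hsd17b11 and Hsd3b2 are blue in all 3 knockdown columns, and Akr1c18 is bluest in knockdown replicate 3 and red in control replicate 4.

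Several members of a family sit side by side on a chromosome, and some neighbours had different values. In all, 13 pairs of measured neighbours of a family within 500 kb were compared by the difference between the 2 genes in each library. In 4 pairs the knockdown and control libraries did not overlap: Akr1c19 and Akr1c21, 321.2 kb apart (difference between log2 fold changes 2.41), Akr1c21 and Akr1e1, 4.21 kb apart (-1.78), Hsd3b2 and Hsd3b3 (-1.81) and Adh1 and Adh5 (-1.12). Each had an exact two-sided permutation p of 0.0286, the smallest that the 35 ways to assign the group labels can give, and a Benjamini-Hochberg adjusted p of 0.0929 over the 13 pairs. Without the pair of Akr1c21 and Akr1e1, which belong to different subfamilies, the adjusted p of the exact test was 0.114 over 12 pairs. The pairs were defined by position, after the values had been seen. Each of the 4 pairs without overlap held Adh1, Akr1c21 or Hsd3b2, which did not overlap between groups on their own. The pair results thus restate those differences and give no separate support, and Akr1c21 is shared between pairs. The permutation took no account of title style. For the other 9 pairs the exact permutation p lay between 0.257 and 1. The Akr genes of chromosome 13 ran, in chromosome order, from Akr1c14 (-0.81) and Akr1c18 (-1.23) through Akr1c13 (0.13) and Akr1c19 (0.47) to Akr1c21 (-1.93) and Akr1e1 (-0.15). On chromosome 6, Akr1b8 and Akr1b10 differed by the same -0.19.

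**Figure D4:**
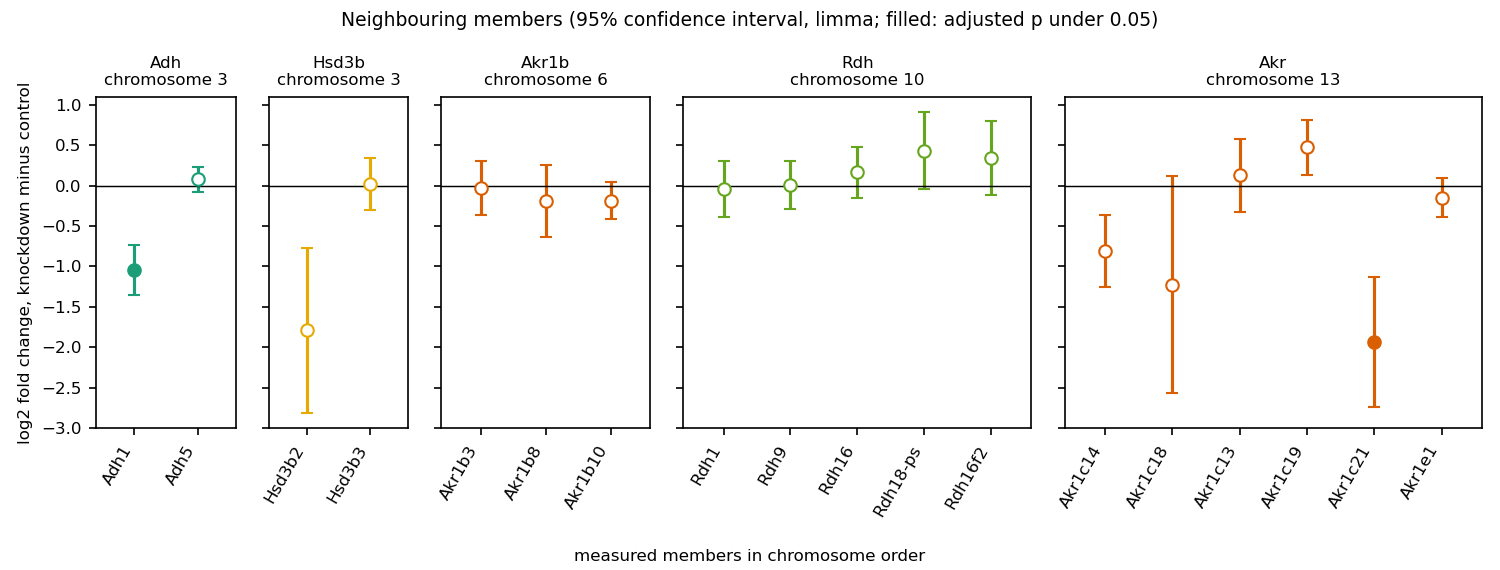
Log2 fold change, knockdown minus control (y axis), with 95% confidence intervals of limma for 5 groups of neighbouring members in chromosome order; filled points have an adjusted p under 0.05. Adh1, Hsd3b2 and Akr1c21 lie well below their neighbours, Adh5 for the first, Hsd3b3 for the next, and Akr1c19 and Akr1e1 for the last.

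Promoters are shown for Adh1, Hsd17b11 and Akr1c21, which fell, and for Hsd3b2, whose log2 fold change was large but did not pass. Akr1c14 and Aldh1l2, which had smaller adjusted p-values than Hsd3b2, are not shown. Hsd3b3 is added because it lies next to Hsd3b2 without sharing its difference, and 1 of its 2 RefSeq start sites is shown. Sequences are from RefSeq on GRCm38.p6, each from 250 bases before to 50 bases after the annotated start, written 5′ to 3′ on the gene's strand. The Adh1 window lies inside the gene as placed above, which begins at 138260991, and sequence around that earlier start was not examined. RefSeq promoters were found for 39 of the 47 members, Rdh10 not among them. Capitals mark matches on either strand to 6 motifs, none of which overlapped another here. These were the core promoter element TATAAA, the CCAAT box, the nuclear receptor hexamer AGGTCA, the steroid receptor hexamer AGAACA, the HNF1 core GTTAAT and the antioxidant response core TGACNNNGC.
Adh1, chr3:138277335-138277634, plus strand: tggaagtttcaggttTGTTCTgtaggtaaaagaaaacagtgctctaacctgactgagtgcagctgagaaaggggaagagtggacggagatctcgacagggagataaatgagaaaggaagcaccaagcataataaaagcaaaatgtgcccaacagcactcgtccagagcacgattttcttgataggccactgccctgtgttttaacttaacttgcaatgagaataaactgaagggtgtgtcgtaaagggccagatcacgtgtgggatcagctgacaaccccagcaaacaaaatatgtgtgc
Hsd17b11, chr5:104021747-104022046, minus strand: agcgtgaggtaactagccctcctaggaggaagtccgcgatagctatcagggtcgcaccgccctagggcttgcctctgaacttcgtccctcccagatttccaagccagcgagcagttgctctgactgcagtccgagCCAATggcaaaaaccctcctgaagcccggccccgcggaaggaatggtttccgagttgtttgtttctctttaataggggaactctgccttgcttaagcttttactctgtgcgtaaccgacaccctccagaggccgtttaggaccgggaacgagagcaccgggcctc
Akr1c21, chr13:4573825-4574124, plus strand: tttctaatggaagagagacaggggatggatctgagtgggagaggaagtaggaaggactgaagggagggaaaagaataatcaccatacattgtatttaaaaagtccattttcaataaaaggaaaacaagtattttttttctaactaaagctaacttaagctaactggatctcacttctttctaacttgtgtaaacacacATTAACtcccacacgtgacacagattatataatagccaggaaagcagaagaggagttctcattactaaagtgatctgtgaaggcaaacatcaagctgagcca
Hsd3b2, chr3:98724494-98724793, minus strand: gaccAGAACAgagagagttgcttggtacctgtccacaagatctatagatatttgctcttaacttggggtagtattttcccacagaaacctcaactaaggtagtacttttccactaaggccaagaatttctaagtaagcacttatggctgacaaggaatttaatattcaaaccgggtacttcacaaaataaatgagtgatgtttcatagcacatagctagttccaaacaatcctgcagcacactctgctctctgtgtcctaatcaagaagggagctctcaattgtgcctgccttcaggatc
Hsd3b3, chr3:98763079-98763378, minus strand: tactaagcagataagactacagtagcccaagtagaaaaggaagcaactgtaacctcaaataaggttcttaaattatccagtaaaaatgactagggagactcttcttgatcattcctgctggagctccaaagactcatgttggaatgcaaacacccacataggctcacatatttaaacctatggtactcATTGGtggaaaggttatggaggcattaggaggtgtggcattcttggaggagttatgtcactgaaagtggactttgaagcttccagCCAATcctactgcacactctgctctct

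None of the 6 motifs was found in all 3 promoters shown of genes that fell (Adh1, Hsd17b11 and Akr1c21). Adh1 and Hsd3b2 each held 1 match to the steroid receptor hexamer, which began at -235 and -246 from the annotated start. At least 1 such match is held by 19.0% of all 32851 promoters of this length. Akr1c21 held 1 match to the HNF1 core, found in 7.10% of all promoters. Hsd17b11 held 1 CCAAT box and Hsd3b3 held 2 at each of its 2 start sites, against 37.4% of all promoters with at least 1. The promoter of Hsd17b11 had 18 CpG dinucleotides, against 6 for Adh1, 1 each for Akr1c21 and Hsd3b2 and a median of 7 over all promoters. A match describes these letters only, and no binding was measured.

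The CB6 pair carried much of the spread in 3 members. For Akr1c18 the difference between knockdown and control was -0.18 within the libraries titled G and -3.78 in the CB6 pair. For Hsd3b2 it was -0.995 against -3.76, and for Akr1c21 -1.34 against -3.42. Ranked by how far these differences lay apart, the 3 genes stood at places 1, 5 and 32 of the 12958. By an interaction of group and title style in limma, Akr1c18 and Hsd3b2 each had a Benjamini-Hochberg adjusted p of 0.122 and Akr1c21 of 0.272, so that the difference between title styles did not pass for any of the 47 members, and 4 had an unadjusted p under 0.05, while 0.0232% and 4.41% of all genes did. The CB6 side is a single pair of libraries. For Adh1 and Hsd17b11 the CB6 difference minus the G difference was -0.36 and 0.22, where the median size over all genes was 0.17.

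**Figure D5:**
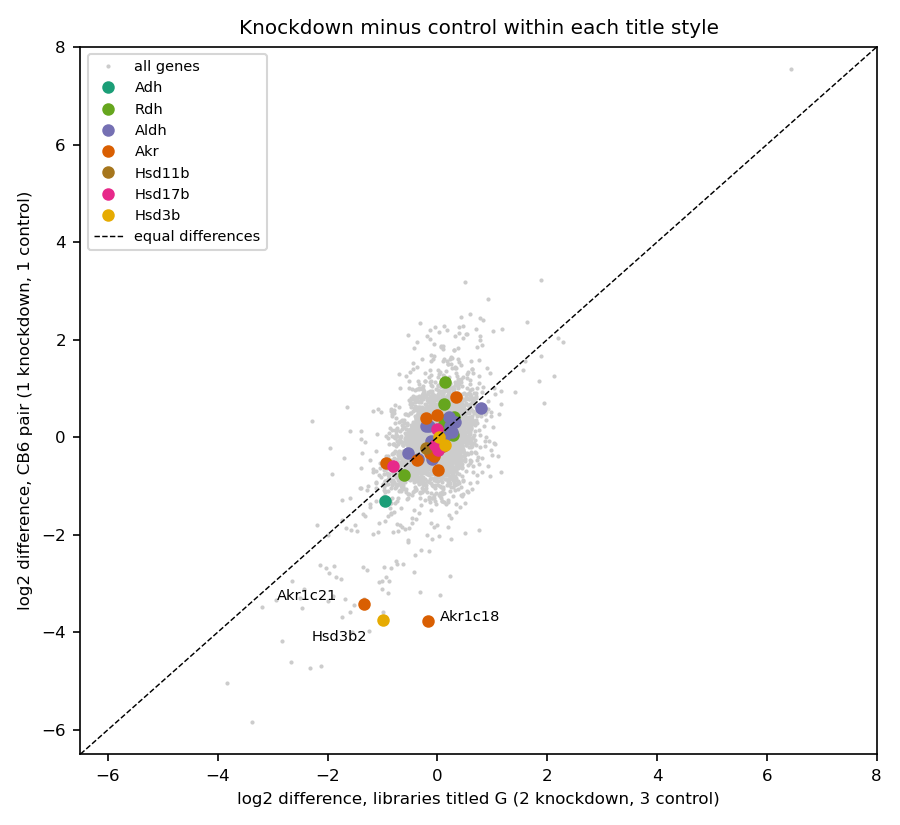
Knockdown minus control on the log2 scale within the libraries titled G (x axis) and within the CB6 pair (y axis), with all genes in grey, members coloured by family and a dashed line where both are equal. Akr1c18, Hsd3b2 and Akr1c21 lie far below the line, at -3.78, -3.76 and -3.42 on the y axis.

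Genes around these enzymes were read from 6 lists of 119 measured genes, of which 6 fell and 0 rose, where 3.02% of all genes were called. Among the 119, Rarres2 and Slc6a12 showed the library offsets described for Aldh3a2, so they carried no usable measurement but stay in the counts. Of 16 genes of retinoid transport and signalling 2 fell, among them Ttr, the plasma carrier of thyroxine and, indirectly, of retinol. Ttr was at 7.32, 7.08 and 5.94 in knockdown and at 8.33, 8.40, 8.60 and 9.92 in control libraries. The groups did not overlap, and it fell by 2.03 on the log2 scale (adjusted p = 0.0499 by limma with Benjamini-Hochberg adjustment). The call was lost with any single library left out (adjusted p from 0.0561 to 0.145), under median scaling (0.0503) and without an intensity trend (0.0688). For Ttr the CB6 pair differed by -3.98 and the libraries titled G by -1.24. The median of this list was -0.03.

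Of 20 cholesterol synthesis genes Hmgcs1, an early enzyme of the pathway, fell by 0.58 on the log2 scale (adjusted p = 0.0104 by limma with Benjamini-Hochberg adjustment; list median 0.04). Bhmt2, a methyltransferase of methionine synthesis, fell by 1.06 among 30 genes of amino acid, choline and folate catabolism (adjusted p = 0.0365; list median -0.01). Of 20 NRF2 targets the glutathione transferases Gsta2 and Gstm1 fell by 0.44 and 0.41 (adjusted p = 0.0383 and 0.0323; list median -0.07). No gene passed (limma, Benjamini-Hochberg) among 16 genes of steroid synthesis, receptors and targets or 17 of sugar alcohol and carbonyl metabolism. At an unadjusted p of 0.05 there were 1 and 5 (6.25% and 29.4%), against 18.4% of all genes. Of the 5, 4 were higher in knockdown. The glucocorticoid receptor gene Nr3c1 and the steroid target Sgk1 differed by 0.08 and -0.14, and Slc5a3, the inositol transporter, by 0.24. Leaving out a single library ended the call of Hmgcs1 for 2 of the 7 libraries (knockdown replicates 2 and 3), of Gsta2 for each of the 7, of Bhmt2 for all but control replicate 2 and of Gstm1 for all but control replicates 2 and 3. With title style as a covariate only Hmgcs1 of the 6 remained past the threshold, and in the libraries titled G alone none did.

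Markers of cells that also use these enzymes did not share one direction. Of 15 thick limb, distal nephron and collecting duct markers 2 rose and 0 fell, where 0.996% of all genes rose. Their median log2 fold change was 0.26. By contrast 12 of 12 endothelial markers were negative, where 5682 of all 12958 genes were. None of the 12 was called (limma, Benjamini-Hochberg), and 5 had an unadjusted p under 0.05, where 18.4% of all genes did. Of 9 mesangial markers 2 fell, where 2.02% of all genes did. With title style as a covariate the mesangial Sfrp2 and Serpine2 lost their calls (adjusted p = 0.0644 and 0.0967 by limma with Benjamini-Hochberg adjustment). Atp6v1g3, a distal marker that rose, lost its call there as well (adjusted p = 0.0870). Slc4a1, which also rose, lost its call in the libraries titled G alone (adjusted p = 0.224). For the adrenal cortex, a site of Hsd3b and Akr1 enzymes, 3 of 9 listed markers were measured and none passed (limma, Benjamini-Hochberg). Their log2 fold changes were 0.12 for Star, 0.11 for Fdx1 and -0.44 for Scarb1, which did not overlap between groups and was the 1 with an unadjusted p under 0.05. Of 9 hepatocyte markers 2 were measured, of which Ttr fell. The part of these cell types in the members' differences was not tested.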

How the data were processed

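RNA sequencing of isolated glomeruli gave 1 table per library. The authors deposited log2 expression values for 12958 gene symbols; the base is not stated and was read as 2, and values ran from 2.32 to 17.2. Reads were aligned with BWA to mm10, per the submitters' processing notes; the sources used here do not give how reads were counted and scaled or strand use, so depth, counting error and tests on counts were not available. Groups follow the genotype labels. Knockdown (n = 3) was compared with control (n = 4) in R 4.3.3 using limma 3.58.1, with its variance trend on intensity fitted over all genes, p-values adjusted by Benjamini-Hochberg and called under 0.05; a filter that asked for 3 libraries above the lowest value removed 0 genes. Labels do not tie replicate numbers across groups. That the libraries came from separate mice rests on the design text, which counts animals.

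Across genes, which are not independent, the CB6 knockdown and control libraries deviated from their groups with a correlation of -0.958. If the values had been adjusted for title style before deposit, p-values of the fit by group alone are too small, so the fit with title style as a covariate is given beside it. Genes were placed with GENCODE release M21 on GRCm38, which held all 47 members, 46 of them protein coding. Sharing of sequence was counted as words of 50 bases in each member's longest transcript.

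Members and gene lists were chosen with earlier results of these data known. Named are Shroom3, members at an unadjusted p of 0.05, up to 3 others per family with the highest mean, and up to 4 called genes of each list or else the 2 with the highest mean; those named in addition, such as Akr1c18, Rdh18-ps and Scarb1, were chosen after their values were seen. For marker lists other than the proximal tubule, mostly counts are given. A few list genes chosen this way are not reported here. Alternatives were quantile normalization, median scaling, other filters, thresholds and variance models, title style, and leaving out each library; the interaction with title style and the test of neighbours were added after seeing the data. On simulated data for the comparison of knockdown with control, with 12958 genes, the fit recovered 43 of 100 genes changed by 0.5 and 87 of 100 changed by 1 on the log2 scale, with 4 false calls. The simulated noise was normal and independent between genes and libraries, and it held no title styles. These counts therefore do not give the rate of false calls in the deposited values.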

Additional observations from a re-analysis of the deposited data

Results flagged for a closer look

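Among the 4 control libraries, 2 of the 47 members had 1 library far from the rest, by a rule that chance alone meets in about 1 of 20 groups. Aldh16a1, an aldehyde dehydrogenase family member, was at 8.67 in control replicate 3, while the other controls lay between 8.00 and 8.07. Its log2 fold change of -0.07 (adjusted p = 0.871 by limma with Benjamini-Hochberg adjustment) became 0.08 without that library. Aldh3a2 was at 5.35 in control replicate 4, with the other controls between 5.26 and 5.27, and is the member whose values in the libraries titled G followed shared library offsets.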

How the results depend on the processing

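No paired analysis was possible because the labels give the groups no shared replicate numbers. The count of 4 lower members was 4 or 5 without the filter, under median scaling or quantile normalization, among genes with higher means, without an intensity trend and with the robust step, 3 with title style as a covariate, 0 in the libraries titled G alone (fewer samples), and 7 and 2 at thresholds of 0.1 and 0.01. It ran from 2 to 4 with a library left out, at 2 without knockdown replicate 2 or 3 or control replicate 1. The count of 0 higher members ran from 0 to 3 with a library left out, at 3 (Akr1c19, Aldh1a7 and Rdh16f2) without control replicate 2. Adh1 and Hsd17b11 passed in each of these fits at the threshold of 0.05 except the libraries titled G alone (adjusted p = 0.115 and 0.0820). The 6 called pathway genes became 1 with title style, 0 in the libraries titled G alone, 12 at 0.1 and 0 at 0.01, and 0 to 5 with a library left out: 2 without knockdown replicate 1, 0 without replicate 2 or 3, 3 without control replicate 2 and 1 without control replicate 4; the cause was not tested.

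Some uncalled genes near 0 changed sign. In the libraries titled G alone Rdh1 was at 0.0204, Hsd17b12 at 0.0179, Hsd17b10 at -0.0034, Akr1c13 at -0.0076, Akr1b8 at 0.011 and Aldh3a2 at 0.0302. Rdh9 was at -0.00011 under quantile normalization and -0.0016 under median scaling. With a library left out Rdh1 ran from -0.14 to 0.0876, Rdh9 from -0.10 to 0.10, Aldh1l1 from -0.12 to 0.0142, Akr1b3 from -0.14 to 0.12, Hsd3b7 from -0.0261 to 0.14, Hsd3b3 from -0.11 to 0.14, Akr1c13 from -0.0438 to 0.37, Aldh16a1 from -0.15 to 0.0843, Aldh3a2 from -0.0132 to 0.0173, Plat from -0.22 to 0.0812 and Fdx1 from -0.0513 to 0.24. Without counts, what depth limits could not be measured.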
